A study of Mus musculus with 10 samples.

Results

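Transcripts of 38 genes of the hypoxia response and of glycolysis were followed in 10 mouse prostate orthografts, tumours grown from cell lines injected into the prostate. The members are a fixed list of symbols: 16 glycolytic enzymes, 3 enzymes that switch flux into or out of glycolysis, 4 glucose and lactate transporters, 12 genes known to be induced by low oxygen, and 3 genes for the hypoxia-inducible factors and their regulator Vhl. All 38 were found among the 47069 gene IDs listed, and all 38 passed the filter on low counts that left 17644 genes to test. The tumours came from 3 lines: CP2 (n = 4), CP1 (n = 3) and P1 (n = 3). In every case the cells had been injected into an anterior prostate lobe of a male CD-1 Nude mouse, a host with no normal thymus. CP2 and CP1 were derived from prostate tumours of donor mice aged 8 and 6 months that carried 1 Ctnnb1 allele with a prostate-targeted deletion of exon 3, which stabilises beta-catenin, the effector of Wnt signalling. P1 was derived from the prostate tumour of a 14-month-old donor without that allele, and the donor genotypes also differ in other respects. The labels give no more than 1 donor tumour per line, so that line, genotype and donor age cannot be told apart, and they do not say that each library came from its own mouse.

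Glycolysis turns glucose into pyruvate in the cytosol, and lactate dehydrogenase turns pyruvate into lactate, which leaves the cell with a proton through monocarboxylate transporters. When oxygen is low, prolyl hydroxylases no longer mark the alpha subunits of the hypoxia-inducible factors (HIF) for the von Hippel-Lindau protein, and the stabilised factors raise transcription of glucose transporters, most glycolytic enzymes, lactate export, blood vessel growth factors and enzymes of collagen and pH balance. Normal prostate secretory epithelium is known for exporting citrate rather than for a high glycolytic rate.

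Total counts were 18800912 to 20638085 per CP2 library, 25081535 to 30546426 per CP1 library and 28050484 to 37180721 per P1 library. Levels are CPM (counts scaled to a common library size after TMM normalisation). A fold change was called at an adjusted p below 0.05 in edgeR's quasi-likelihood test (Benjamini-Hochberg over all 17644 genes), and it is given as log2, first line minus second. The title of CP2 replicate 1 reads CP1, whereas its other labels read CP2, the line used here; its log2 CPM correlated at 0.990 to 0.992 with the other CP2 libraries and at 0.928 to 0.935 with the CP1 libraries, across genes. Markers of the labelled tissue, prostate and other epithelium, summed to 549.6 to 798 CPM in CP2, 954 to 2389 CPM in CP1 and 10544 to 20726 CPM in P1. Seminal vesicle and secretory prostate markers summed to 81.2 to 1674 CPM in CP2, 30.2 to 767 CPM in CP1 and 20941 to 173693 CPM in P1. Proliferation markers summed to 1282 to 1550.1 CPM in CP2, 1452 to 2041 CPM in CP1 and 605 to 778 CPM in P1. The sums of CP2 and CP1 hide opposite directions. Rrm2 averaged 274 CPM in CP2 and 838 CPM in CP1, whereas 6 of the 10 markers were called higher in CP2 than in CP1 and 1 lower. Over all genes 21.3% were called higher and 21.9% lower in CP2 versus CP1.

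Members were called in both directions in every comparison. In CP2 versus CP1, 3 of 38 members were called higher and 12 lower, 39.5% of the list against 43.2% of all genes tested, of which 21.3% were higher and 21.9% lower. In CP2 versus P1, 7 members were called higher and 8 lower, 39.5% against 56.7% of all genes, of which 28.2% were higher and 28.4% lower. In CP1 versus P1, 13 members were called higher and 5 lower, 47.4% against 44.8% of all genes, of which 22.4% were higher and 22.4% lower. The members' median log2 fold change was -0.50 in CP2 versus CP1, -0.01 in CP2 versus P1 and 0.37 in CP1 versus P1, while the median over all genes was -0.01, 0.00 and -0.01. The values of the 2 lines did not overlap for 16 members in CP2 versus CP1, 17 in CP2 versus P1 and 15 in CP1 versus P1, against 52.3%, 60.1% and 50.8% of all genes, which is 42.1%, 44.7% and 39.5% of the members. Without CP1 replicate 3, 6 members were lower in CP2 than in CP1, and 7 were higher in CP1 than in P1. Over all genes these calls numbered 3262 and 3541, against 3867 and 3955 with all tumours. Without P1 replicate 1, 8 members were higher in CP1 than in P1, as were 3817 of all genes. Without CP1 replicate 1 or 2, 3 members were lower in CP1 than in P1. Both comparisons with P1 use the same 3 P1 tumours. A lower level in these bulk samples can come from fewer cells of a type or from less RNA per cell, and these cannot be told apart.

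**Figure D1:**
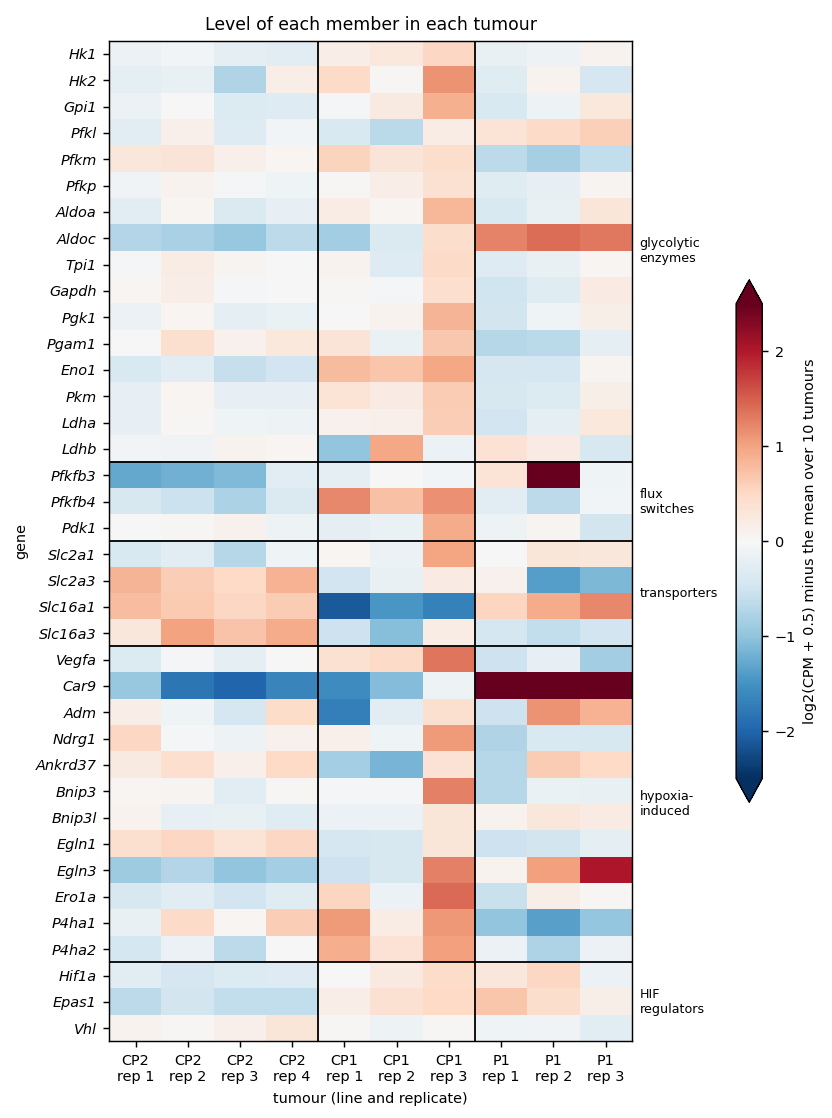
Each row is 1 of the 38 members, grouped by role, and each column 1 tumour; colour gives log2(CPM + 0.5) minus the gene's mean over the 10 tumours. Car9 is high in the 3 P1 tumours, Slc16a1 is low in the 3 CP1 tumours, and CP1 replicate 3 is the highest CP1 tumour for 33 of the 38 members.

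**Figure D2:**
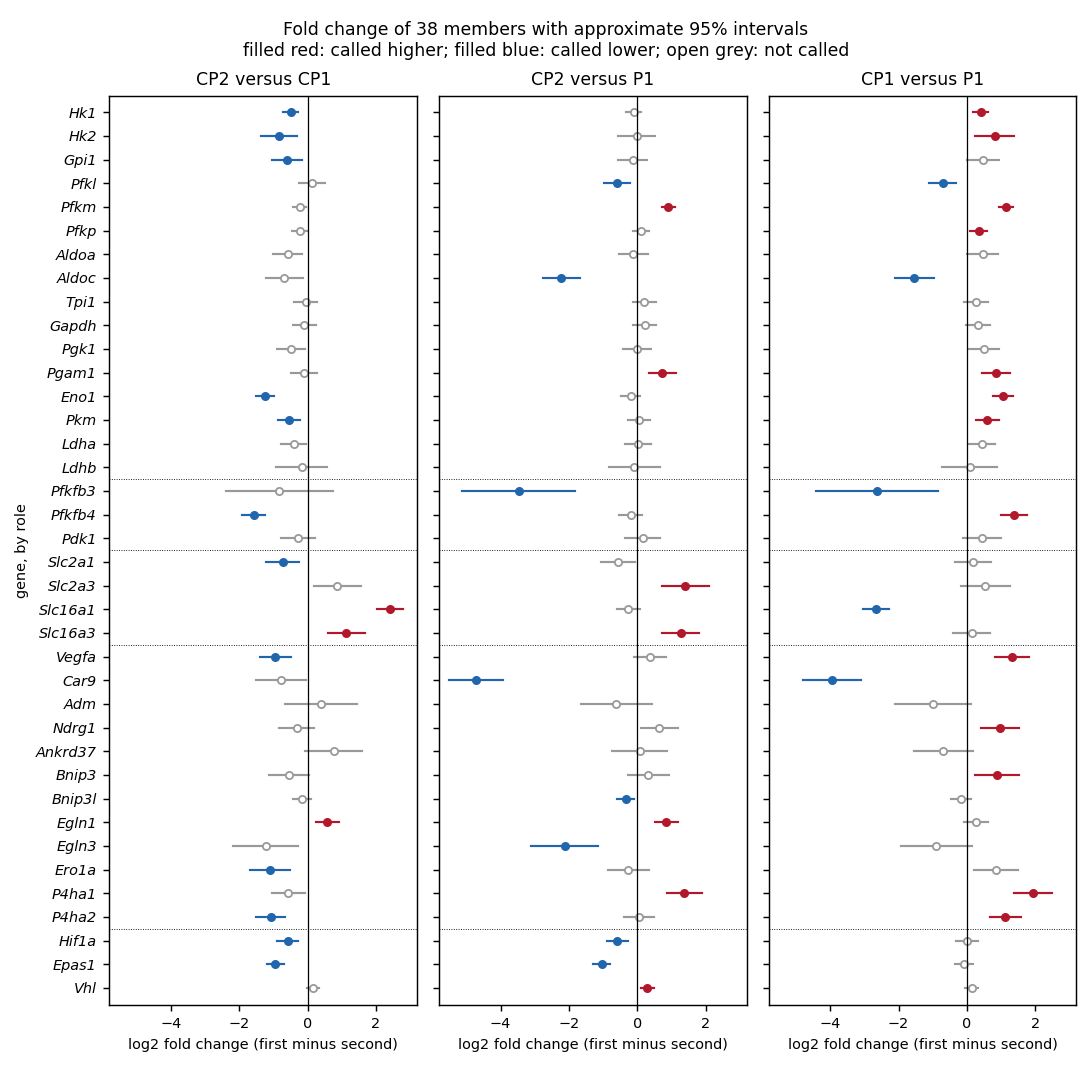
Log2 fold change of each member with an approximate 95% interval in the 3 comparisons; filled points passed the test, open points did not. The largest fall is Car9 at -4.72 in CP2 versus P1 and the largest rise Slc16a1 at 2.40 in CP2 versus CP1.

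Among the 16 glycolytic enzymes, 5 were called lower and 0 higher in CP2 than in CP1 (31.2%, against 43.2% of all genes), with 0 also higher at an unadjusted p below 0.05 in edgeR and 0 in DESeq2's Wald test. In CP1 versus P1, 7 were higher and 2 lower (56.2% called, against 44.8% of all genes), and in CP2 versus P1, 2 were higher and 2 lower (25.0%, against 56.7%). Their median log2 fold change was -0.45 in CP2 versus CP1, -0.01 in CP2 versus P1 and 0.44 in CP1 versus P1. The number lower in CP2 than in CP1 was 2 without CP1 replicate 3, CP2 replicate 1 or CP2 replicate 3, and 3 without CP2 replicate 2 or 4. The number higher in CP1 than in P1 was 3 without CP1 replicate 3 or P1 replicate 1, and 4 without P1 replicate 2. Without P1 replicate 2, 1 was higher in CP2 than in P1, and 1 was lower without CP2 replicate 1, CP2 replicate 3 or P1 replicate 3. The number lower in CP1 than in P1 was 1 without CP1 replicate 1, CP1 replicate 2 or P1 replicate 3.

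The hexokinases, which phosphorylate glucose on entry, were lower in CP2 than in CP1. Hk1 measured 227, 237, 211 and 209.9 CPM in CP2 tumours, 281, 300.4 and 359.95 CPM in CP1 tumours and 221, 229 and 265 CPM in P1 tumours. Every CP1 tumour lay above every CP2 and P1 tumour. The log2 fold change of Hk1 was -0.50 ± 0.11 (SE), adjusted p = 0.00431 in CP2 versus CP1, and 0.40 ± 0.12 (SE), adjusted p = 0.0182 in CP1 versus P1. Hk2, the form known to be induced by hypoxia and growth signals, measured 125, 130.4, 87.7 and 166 CPM in CP2 tumours, 207, 152 and 324 CPM in CP1 tumours and 119, 158 and 110.1 CPM in P1 tumours. CP1 replicate 3 stood highest and CP2 overlapped both other lines. Hk2 differed by log2 -0.84 ± 0.27 (SE), adjusted p = 0.0299 in CP2 versus CP1 and 0.82 ± 0.29 (SE), adjusted p = 0.0437 in CP1 versus P1. The Hk1 rise in CP1 was lost on leaving out CP1 replicate 3 or P1 replicate 1 or 2 (adjusted p = 0.0689 to 0.0799). The Hk2 calls were lost on leaving out, for CP2 versus CP1, CP2 replicate 1, 2 or 3 or CP1 replicate 3 (adjusted p = 0.0610 to 0.143), and for CP1 versus P1, any single tumour other than CP2 replicate 3 or 4, CP1 replicate 2 or P1 replicate 2 (adjusted p = 0.0602 to 0.182).

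Gpi1, which turns glucose 6-phosphate into fructose 6-phosphate, measured 429, 476, 376 and 382 CPM in CP2 tumours, 464, 560.3 and 879 CPM in CP1 tumours and 367, 434 and 570.1 CPM in P1 tumours. CP1 replicate 3 was high and the lines overlapped. Its log2 fold change of -0.61 ± 0.22 (SE), adjusted p = 0.0466 in CP2 versus CP1 was lost on leaving out any single tumour other than CP1 replicate 1 or P1 replicate 1 or 3 (adjusted p = 0.0577 to 0.227), and it passed in CP1 versus P1 without CP1 replicate 1 (adjusted p = 0.0482).

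Of the 3 phosphofructokinases, which catalyse the committed step, Pfkm was higher and Pfkl lower in both CP lines than in P1. Pfkm, the muscle-type subunit (ENSMUSG00000033065, GRCm38 chr15:98092589-98132451, plus strand), measured 62.4, 64.4, 56.3 and 53.5 CPM in CP2 tumours, 75.3, 64.2 and 69.8 CPM in CP1 tumours and 32.6, 28.6 and 33.4 CPM in P1 tumours. Every CP2 and CP1 tumour lay above every P1 tumour. The log2 fold change was 0.91 ± 0.10 (SE), adjusted p = 4.5e-05 in CP2 versus P1, and 1.15 ± 0.11 (SE), adjusted p = 2.2e-05 in CP1 versus P1. Pfkl, the liver-type subunit, ran the other way at 199, 265, 193 and 230.4 CPM in CP2 tumours, 186, 152 and 276 CPM in CP1 tumours and 305, 336 and 365 CPM in P1 tumours. The P1 tumours were the highest 3. Pfkl differed by log2 -0.60 ± 0.19 (SE), adjusted p = 0.0223 in CP2 versus P1, and by -0.71 ± 0.21 (SE), adjusted p = 0.0177 in CP1 versus P1. The Pfkl calls were lost on leaving out, for CP2 versus P1, CP2 replicate 1 or 3 or P1 replicate 3 (adjusted p = 0.0578 to 0.0689), and for CP1 versus P1, CP1 replicate 1 or 2 or P1 replicate 3 (adjusted p = 0.0509 to 0.0567). Pfkp, the platelet-type subunit, measured 158, 178, 166 and 157 CPM in CP2 tumours, 172, 189.9 and 219 CPM in CP1 tumours and 137, 145 and 177 CPM in P1 tumours. Its ranges in CP2 and in CP1 overlapped that in P1. Pfkp did not pass in CP2 versus P1 (log2 0.11 ± 0.11 (SE), adjusted p = 0.454), and its log2 fold change in CP1 versus P1, 0.34 ± 0.12 (SE), adjusted p = 0.0441, was lost on leaving out any single tumour other than CP1 replicate 1 or P1 replicate 3 (adjusted p = 0.0563 to 0.162).

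Aldolase splits the doubly phosphorylated sugar into 2 trioses, and Aldoc is its minor, brain-type form. Aldoc measured 4.47, 4.22, 3.79 and 4.75 CPM in CP2 tumours, 4.06, 5.98 and 10.8 CPM in CP1 tumours and 19, 21.2 and 20.3 CPM in P1 tumours. The 3 P1 tumours were the highest. The log2 fold change was -2.22 ± 0.28 (SE), adjusted p = 9.5e-05 in CP2 versus P1, and -1.54 ± 0.30 (SE), adjusted p = 0.00196 in CP1 versus P1, and without CP1 replicate 1 it was also lower in CP2 than in CP1 (log2 -0.96, adjusted p = 0.00879). Aldoa, the main form, measured 746, 928, 699 and 773 CPM in CP2 tumours, 1019.9, 920.4 and 1590.2 CPM in CP1 tumours and 688, 786 and 1098 CPM in P1 tumours. It passed the test in no comparison, at -0.58 ± 0.22 (SE), adjusted p = 0.0520 in CP2 versus CP1, and it passed there on leaving out CP1 replicate 2 or P1 replicate 1 or 3 (adjusted p = 0.0336 to 0.0468) and in CP1 versus P1 on leaving out P1 replicate 3 (adjusted p = 0.0468).

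Later in the pathway, Eno1 set CP1 apart and Pgam1 set both CP lines apart from P1. Eno1, enolase 1 (ENSMUSG00000063524, GRCm38 chr4:150236721-150248879, plus strand), measured 251, 269.6, 219 and 235 CPM in CP2 tumours, 569, 529 and 644 CPM in CP1 tumours and 246, 245 and 345 CPM in P1 tumours. The 3 CP1 tumours lay above all other tumours, while CP2 and P1 overlapped. Eno1 was 2.38-fold lower in CP2 than in CP1 (log2 -1.25 ± 0.14 (SE), adjusted p = 9.9e-05) and 2.08-fold higher in CP1 than in P1 (log2 1.06 ± 0.15 (SE), adjusted p = 0.000310). Eno1 shares near-identical sequence with the annotated gene Eno1b, which was also higher in CP1, so that counting may have split reads between them. Pgam1, a phosphoglycerate mutase, measured 494, 649, 531 and 587 CPM in CP2 tumours, 614, 434 and 782 CPM in CP1 tumours and 300.04, 309 and 412 CPM in P1 tumours. Every CP2 and CP1 tumour lay above every P1 tumour. Pgam1 differed by log2 0.73 ± 0.20 (SE), adjusted p = 0.0105 in CP2 versus P1, lost on leaving out P1 replicate 2 (adjusted p = 0.0509), and 0.84 ± 0.21 (SE), adjusted p = 0.00868 in CP1 versus P1.

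Pkm, the pyruvate kinase of most tissues and tumours, measured 1730.4, 2067, 1722 and 1717 CPM in CP2 tumours, 2538, 2297 and 3085 CPM in CP1 tumours and 1500.0, 1570.0 and 2192 CPM in P1 tumours. CP1 lay above both other lines in every tumour. The log2 fold change was -0.55 ± 0.16 (SE), adjusted p = 0.0204 in CP2 versus CP1, and 0.59 ± 0.17 (SE), adjusted p = 0.0186 in CP1 versus P1. The Pkm calls were lost on leaving out, for CP2 versus CP1, CP2 replicate 1, 3 or 4 or CP1 replicate 3 (adjusted p = 0.0502 to 0.0873), and for CP1 versus P1, CP1 replicate 3 or P1 replicate 1 or 2 (adjusted p = 0.0702 to 0.0845).

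Ldha, the lactate dehydrogenase subunit that favours lactate formation, measured 1022, 1205, 1081 and 1075 CPM in CP2 tumours, 1259.9, 1285 and 1808 CPM in CP1 tumours and 843, 987 and 1412 CPM in P1 tumours. It passed the test in no comparison with all tumours in the fit, with a log2 fold change of -0.41 ± 0.19 (SE), adjusted p = 0.108 in CP2 versus CP1. Without P1 replicate 3 Ldha passed in CP1 versus P1 (adjusted p = 0.0145) and in CP2 versus CP1 (adjusted p = 0.0421). Ldhb, the subunit that favours pyruvate formation, measured 16.4, 16.2, 18.3 and 17.8 CPM in CP2 tumours, 8.41, 34.1 and 15.6 CPM in CP1 tumours and 22.2, 19.96 and 12.9 CPM in P1 tumours. CP1 replicates 1 and 2 were the lowest and the highest of all tumours, and no comparison passed.

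Tpi1, Gapdh and Pgk1, which carry the trioses through the first energy-yielding steps, were called in no comparison. Tpi1 ran from 564 to 984 CPM, Gapdh from 125 to 238 CPM and Pgk1 from 199 to 495 CPM over the 10 tumours. The approximate 95% interval of the Gapdh log2 fold change was -0.44 to 0.23 in CP2 versus CP1, -0.12 to 0.55 in CP2 versus P1 and -0.04 to 0.68 in CP1 versus P1. Without P1 replicate 3 Gapdh passed the test in CP2 versus P1 (adjusted p = 0.0278) and in CP1 versus P1 (adjusted p = 0.0169). Without CP1 replicate 2 Tpi1 passed in CP1 versus P1 (adjusted p = 0.0498), and without CP1 replicate 1 Pgk1 passed in CP2 versus CP1 (adjusted p = 0.0429). Gapdh has stretches of at least 95% identity over 200 bases or more in 78 other annotated genes, of which 75 are pseudogenes, so its counts are uncertain.

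Per kilobase of exon, Pkm was the most abundant member, at a mean of 362 CPM per kilobase in CP2, 528 in CP1 and 351 in P1. Ldha followed at 331, 438 and 326 CPM per kilobase in CP2, CP1 and P1. The balance of isozymes was taken as shares of CPM per kilobase. In the phosphofructokinase pool, Pfkm held 31, 26.7, 29 and 25.7% in CP2, 35.6, 34.2 and 26.6% in CP1 and 14.9, 12.3 and 12.8% in P1. Pfkl held 49.5, 54.9, 49.7 and 55.5% in CP2, 44.1, 40.6 and 52.6% in CP1 and 69.6, 72.2 and 70.2% in P1. The shares of CP2 and CP1 tumours stood apart from those of P1 tumours for both genes. Pfkm averaged 28.1 ± 2.35% in CP2, 32.1 ± 4.87% in CP1 and 13.3 ± 1.36% in P1 (SD, n = 4, 3 and 3).

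Of the transporters, Slc16a3 held 56.1, 69.4, 67 and 68.8% in CP2, 84.6, 70.4 and 87% in CP1 and 47.5, 38.1 and 36.1% in P1 of the pair Slc16a1 and Slc16a3. The 3 lines did not overlap. Slc2a3 held 8.07, 6.43, 7.83 and 6.82% in CP2, 2.45, 3.43 and 2.09% in CP1 and 3.78, 1.06 and 1.30% in P1 of Slc2a1 and Slc2a3, and CP2 lay above both other lines. Pkm held 99.96% or more of Pkm and Pklr in every CP2 and CP1 tumour and 92.3, 91 and 93.4% in P1 tumours, Pklr being the liver and red cell pyruvate kinase. Aldoc held 0.404 to 0.545% of Aldoa and Aldoc in CP2, 0.354 to 0.603% in CP1 and 1.62 to 2.40% in P1. The shares of Hk2 and of Ldhb overlapped between all lines. Across 27 comparisons of shares, the exact two-sided permutation test reached 0.0286, the smallest p that 4 tumours against 3 allow, in 9. With 3 against 3 it cannot go below 0.1, which was reached in 6. The smallest Benjamini-Hochberg adjusted p was 0.0857, so no share passed at 0.05.

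**Figure D3:**
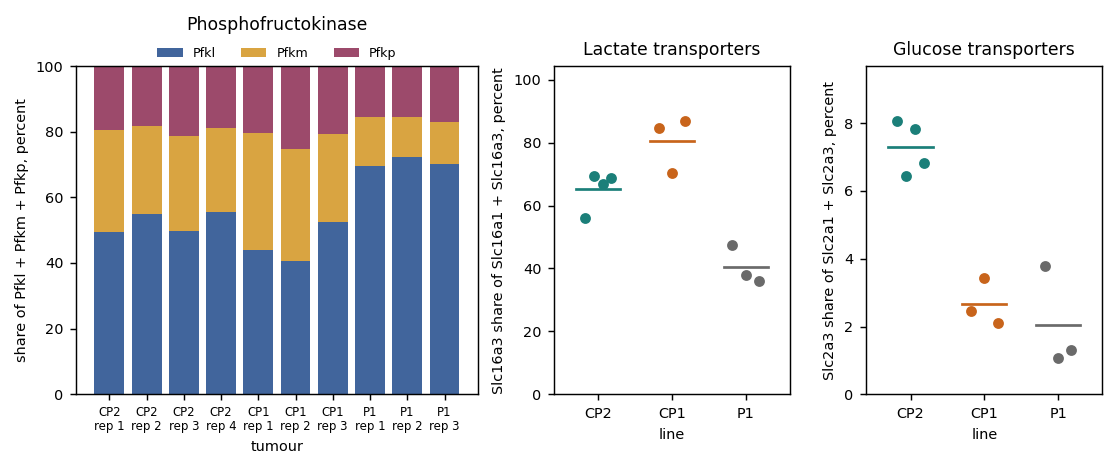
Shares of CPM per kilobase of exon in each tumour: the 3 phosphofructokinases as stacked bars, and Slc16a3 and Slc2a3 as points with the line's mean. The Pfkm band is 25.7 to 35.6% in CP2 and CP1 tumours and 12.3 to 14.9% in P1 tumours.

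The 3 flux switches behaved unlike one another. Pfkfb4, one of the bifunctional enzymes that set the level of the sugar bisphosphate activating phosphofructokinase (ENSMUSG00000025648, GRCm38 chr9:108991778-109032228, plus strand), measured 26.6, 24.1, 20.2 and 27.4 CPM in CP2 tumours, 82.1, 58.6 and 78.8 CPM in CP1 tumours and 28.9, 22.1 and 33.7 CPM in P1 tumours. The 3 CP1 tumours lay above all others and CP2 overlapped P1. It was 2.98-fold lower in CP2 than in CP1 (log2 -1.57 ± 0.17 (SE), adjusted p = 9.3e-05) and 2.59-fold higher in CP1 than in P1 (log2 1.38 ± 0.19 (SE), adjusted p = 0.000234). Pfkfb4 kept its call in both comparisons under each alternative run.

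Pfkfb3, the related enzyme with the strongest kinase activity, measured 19.997, 21, 22.4 and 40.3 CPM in CP2 tumours, 42, 49.2 and 47 CPM in CP1 tumours and 62.4, 751 and 45.6 CPM in P1 tumours. The CP2 tumours lay below all others, and P1 replicate 2 alone was high, 11.9 times the higher of the other P1 tumours, a ratio that ranked 7 among the 11912 genes averaging at least 5 CPM in P1. Of its neighbours on the chromosome, in P1 replicates 1, 2 and 3, Rbm17 stood at 81.1, 76.2 and 106 CPM and Il2ra at 1.29, 1.59 and 1.39 CPM, while Prkcq stood at 0.585, 2.74 and 0.365 CPM and was thus also highest in replicate 2, at a low level. The log2 fold change of Pfkfb3 was -3.46 ± 0.84 (SE), adjusted p = 0.00566 in CP2 versus P1, and -2.64 ± 0.91 (SE), adjusted p = 0.0373 in CP1 versus P1. Without P1 replicate 2 these were -1.08 (adjusted p = 0.00919) and -0.25 (adjusted p = 0.532), and CP2 versus CP1, not called with it, was -0.83 (adjusted p = 0.0239). The CP1 versus P1 call was also lost on leaving out any CP1 tumour or CP2 replicate 1, 2 or 3 (adjusted p = 0.0511 to 0.0993). Pdk1, which blocks the entry of pyruvate into the citric acid cycle, measured 75, 76.3, 80.2 and 68.1 CPM in CP2 tumours, 63.1, 67 and 143 CPM in CP1 tumours and 68.1, 78.4 and 54.5 CPM in P1 tumours, with CP1 replicate 3 the highest, and was called in no comparison.

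Of the 4 transporters, 2 were called higher and 1 lower in CP2 versus CP1 (75%, against 43.2% of all genes), 2 higher in CP2 versus P1 (50%, against 56.7%) and 1 lower in CP1 versus P1 (25%, against 44.8%). Slc16a1, a proton-linked lactate carrier (ENSMUSG00000032902, GRCm38 chr3:104638668-104658462, plus strand), measured 124, 115, 105 and 113 CPM in CP2 tumours, 16.5, 26.2 and 22.4 CPM in CP1 tumours and 106, 139 and 167 CPM in P1 tumours. The 3 CP1 tumours were the lowest, with no value above 26.2 CPM, and CP2 overlapped P1. Slc16a1 was 5.27-fold higher in CP2 than in CP1 (log2 2.40 ± 0.19 (SE), adjusted p = 1.6e-05) and 6.32-fold lower in CP1 than in P1 (log2 -2.66 ± 0.20 (SE), adjusted p = 6.2e-06). In CP2 versus P1, at -0.26 ± 0.17 (SE), adjusted p = 0.223, it passed without P1 replicate 1 (adjusted p = 0.0488).

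Slc16a3, the lactate exporter induced by hypoxia, measured 191, 314, 256 and 300.05 CPM in CP2 tumours, 109, 74.9 and 179 CPM in CP1 tumours and 115, 103 and 113 CPM in P1 tumours. The 4 CP2 tumours lay above all others. Its log2 fold change was 1.13 ± 0.27 (SE), adjusted p = 0.00782 in CP2 versus CP1, and 1.27 ± 0.27 (SE), adjusted p = 0.00290 in CP2 versus P1. Slc2a3, a high-affinity glucose transporter, was scarce at 25.2, 21.1, 19.5 and 25.5 CPM in CP2 tumours, 9.68, 12 and 15.8 CPM in CP1 tumours and 14.8, 4.99 and 6.02 CPM in P1 tumours. The 4 CP2 tumours were the highest. It rose by log2 1.40 ± 0.35 (SE), adjusted p = 0.00680 in CP2 versus P1, and by 2.03 (adjusted p = 0.000114) without P1 replicate 1. Its 0.87 ± 0.35 (SE), adjusted p = 0.0669 in CP2 versus CP1 did not pass with all tumours but did without P1 replicate 1 or 2 (adjusted p = 0.00591 and 0.0427). In CP1 versus P1 it passed without P1 replicate 1 (log2 1.17, adjusted p = 0.00356). The 13 lymphocyte and natural killer cell markers summed to 242 to 347 CPM in CP2, 4.82 to 5.23 CPM in CP1 and 41.4 to 56.5 CPM in P1. Prf1 and Gzmb averaged 176 and 90.2 CPM in CP2. All 13 were detected in each line, but 7 stayed under 1 CPM in every CP2 tumour, 10 in every CP1 tumour and 1 in every P1 tumour. In CP2 versus P1, 2 were called higher and 5 lower, against 28.2% and 28.4% of all genes. In CP2 versus CP1, 6 were called higher and 0 lower, against 21.3% and 21.9%. The part of these cells in the transporter differences was not tested. Slc2a1, the common glucose transporter of tumours, measured 139, 149, 111 and 168 CPM in CP2 tumours, 187, 163 and 359 CPM in CP1 tumours and 182, 224 and 222 CPM in P1 tumours. CP1 replicate 3 was the highest. Slc2a1 differed by log2 -0.74 ± 0.25 (SE), adjusted p = 0.0380 in CP2 versus CP1, a call lost on leaving out CP2 replicate 1, 2 or 3, CP1 replicate 3 or P1 replicate 2 (adjusted p = 0.0518 to 0.175). In CP2 versus P1 it passed without CP1 replicate 3 (log2 -0.56, adjusted p = 0.00934).

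**Figure D4:**
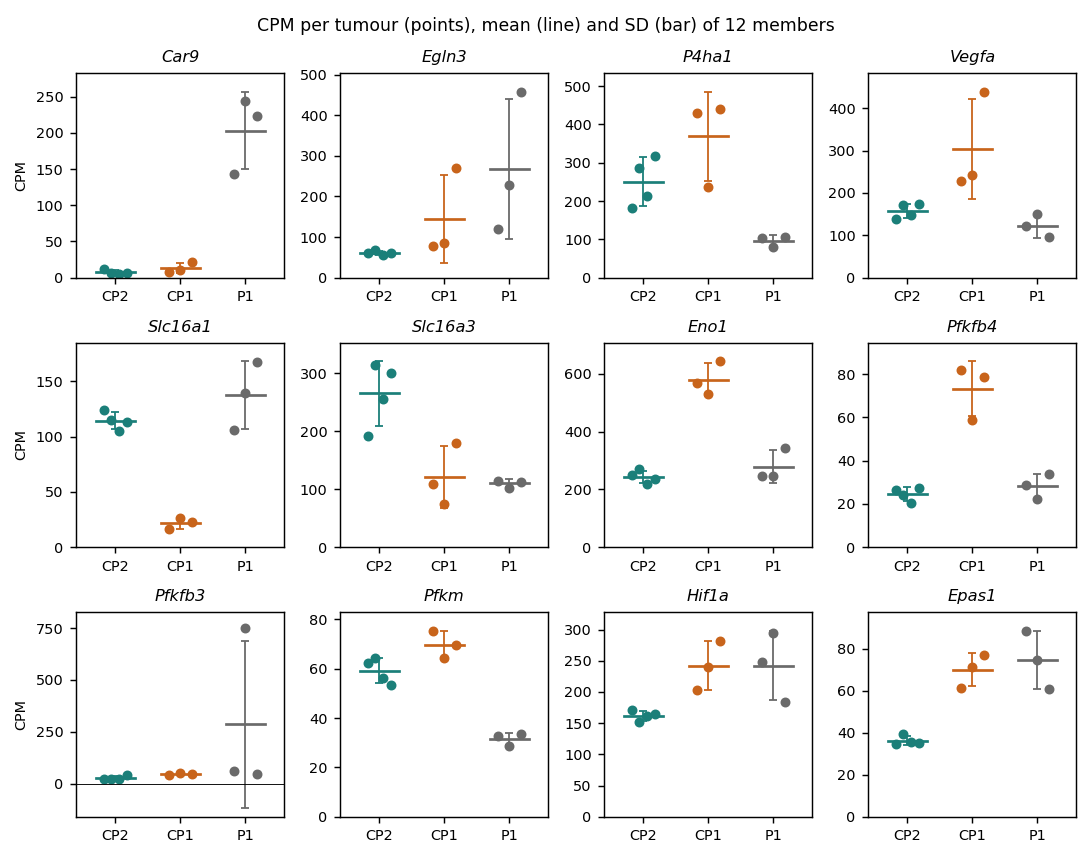
CPM of 12 members in each tumour (points), with the line's mean and SD, CP2, CP1 and P1 from left to right on linear axes. CP1 holds the highest Eno1 and Pfkfb4 and the lowest Slc16a1 levels, P1 the highest Car9 levels, and 1 P1 tumour the single high Pfkfb3 value of 751 CPM.

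The 12 hypoxia-induced genes were called in both directions in every comparison. In CP2 versus CP1, 1 was higher and 3 were lower (33.3% called, against 43.2% of all genes). In CP2 versus P1, 2 were higher and 3 lower (41.7%, against 56.7%). In CP1 versus P1, 5 were higher and 1 lower (50%, against 44.8%). Their median log2 fold change was -0.56 in CP2 versus CP1, 0.06 in CP2 versus P1 and 0.56 in CP1 versus P1. Without CP1 replicate 3 the CP1 versus P1 calls were 3 higher and 3 lower. Without P1 replicate 1, 3 were higher in CP1 than in P1. The single rise in CP2 versus CP1, Egln1, lost its call without CP2 replicate 2 or 4 or CP1 replicate 1 or 2. Without CP1 replicate 3, 2 were higher there, and without CP1 replicate 1, 5 were lower.

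The promoters of 4 members with large differences are shown so that the letters around their starts can be read: Car9, low in both CP lines, and P4ha1, P4ha2 and Pfkfb4, high in CP1. Each run is 300 bases in RefSeq's GRCm38.p6, from 250 before to 50 after the RefSeq start. Capitals mark the core of the hypoxia response element, ACGTG or GCGTG, on either strand (CACGT or CACGC when read on the other).
Car9 promoter, chr4:43506776-43507075, plus strand: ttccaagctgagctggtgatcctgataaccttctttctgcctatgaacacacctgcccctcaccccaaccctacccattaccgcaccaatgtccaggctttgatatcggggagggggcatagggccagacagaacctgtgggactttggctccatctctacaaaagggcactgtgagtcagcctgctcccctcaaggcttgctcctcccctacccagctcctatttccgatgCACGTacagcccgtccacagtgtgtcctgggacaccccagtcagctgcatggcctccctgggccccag
P4ha1 promoter, chr10:59323046-59323345, plus strand: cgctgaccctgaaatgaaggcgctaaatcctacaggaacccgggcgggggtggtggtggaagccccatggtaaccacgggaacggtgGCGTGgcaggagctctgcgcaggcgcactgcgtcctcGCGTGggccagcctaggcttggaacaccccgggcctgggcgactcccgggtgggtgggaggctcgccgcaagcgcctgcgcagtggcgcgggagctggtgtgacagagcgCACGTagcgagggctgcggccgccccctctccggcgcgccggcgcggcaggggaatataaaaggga
P4ha2 promoter, chr11:54100674-54100973, plus strand: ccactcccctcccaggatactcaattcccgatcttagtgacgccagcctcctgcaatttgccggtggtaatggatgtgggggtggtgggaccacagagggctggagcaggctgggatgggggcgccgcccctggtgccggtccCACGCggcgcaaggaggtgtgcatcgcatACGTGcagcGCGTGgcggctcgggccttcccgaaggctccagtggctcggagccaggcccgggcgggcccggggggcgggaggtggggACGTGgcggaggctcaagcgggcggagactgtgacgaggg
Pfkfb4 promoter, chr9:108991652-108991951, plus strand: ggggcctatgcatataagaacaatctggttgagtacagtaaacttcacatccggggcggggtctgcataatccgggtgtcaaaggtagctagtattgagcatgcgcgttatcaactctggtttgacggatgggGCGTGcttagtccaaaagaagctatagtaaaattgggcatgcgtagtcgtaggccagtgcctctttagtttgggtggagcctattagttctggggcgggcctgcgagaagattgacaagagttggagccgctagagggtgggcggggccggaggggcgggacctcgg

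Car9 has 1 match in this window, P4ha1 has 3, P4ha2 has 4 and Pfkfb4 has 1. The RefSeq table held 48 windows for 34 of the members. At least 1 match stood in 39 of these 48 windows (81.2%), against 43.8% of all 32851 windows of that length. Overlapping letters on the 2 strands were counted separately. Member windows held a median of 20.5 CpG dinucleotides, which both motifs contain, against 7 in all windows. The 3 members with no match in any window listed were Gpi1, Tpi1 and Vhl, and a match describes letters, not binding.

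Car9, the cell-surface carbonic anhydrase that disposes of acid and a standard marker of hypoxia (ENSMUSG00000028463, GRCm38 chr4:43506966-43513729, plus strand), was the member with the largest difference. It measured 12, 6.38, 5.52 and 7.12 CPM in CP2 tumours, 7.56, 10.7 and 21.6 CPM in CP1 tumours and 143, 244 and 223 CPM in P1 tumours. The 3 P1 tumours lay above all others, and CP2 and CP1 overlapped. Car9 was 26.3-fold lower in CP2 than in P1 (log2 -4.72 ± 0.40 (SE), adjusted p = 8.4e-06) and 15.3-fold lower in CP1 than in P1 (log2 -3.94 ± 0.43 (SE), adjusted p = 6.0e-05). In CP2 versus CP1 it was at -0.78 ± 0.38 (SE), adjusted p = 0.122, and it passed there without CP1 replicate 1 (log2 -1.06, adjusted p = 0.0449). Prostate and other epithelial markers were also mostly lower in the CP lines, 8 of 11 in CP2 versus P1 and 7 of 11 in CP1 versus P1. All 11 were detected in every line, and their part in the Car9 difference was not tested. Exons of Car9 overlap a gene annotated on the opposite strand by 214 bases.

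The collagen prolyl hydroxylases, which modify collagen chains in the endoplasmic reticulum, were higher in CP1 than in P1. P4ha1 (ENSMUSG00000019916, GRCm38 chr10:59323296-59373304, plus strand) measured 181, 287, 214 and 319 CPM in CP2 tumours, 431, 236 and 442 CPM in CP1 tumours and 104, 80.7 and 106 CPM in P1 tumours. Every CP2 and CP1 tumour lay above every P1 tumour. It was 2.58-fold higher in CP2 than in P1 (log2 1.37 ± 0.26 (SE), adjusted p = 0.00140) and 3.81-fold higher in CP1 than in P1 (log2 1.93 ± 0.28 (SE), adjusted p = 0.000330). In CP2 versus CP1 P4ha1 stood at -0.56 ± 0.25 (SE), adjusted p = 0.0944 and passed without CP1 replicate 2 (log2 -0.80, adjusted p = 0.0188). P4ha2 (ENSMUSG00000018906, GRCm38 chr11:54100095-54131665, plus strand) measured 52.6, 64.9, 45.4 and 71.5 CPM in CP2 tumours, 134, 91.3 and 146 CPM in CP1 tumours and 64, 41.9 and 64.5 CPM in P1 tumours. The 3 CP1 tumours lay above all others. Its log2 fold change was -1.08 ± 0.22 (SE), adjusted p = 0.00302 in CP2 versus CP1, and 1.12 ± 0.24 (SE), adjusted p = 0.00319 in CP1 versus P1. Fibroblast markers, which include 3 collagen genes, summed to 8041 to 9929 CPM in CP2, 15328 to 23810.0 CPM in CP1 and 4911 to 9667 CPM in P1. Col3a1 alone averaged 5563, 10313 and 1931 CPM in CP2, CP1 and P1. Pdgfra averaged 243, 70.1 and 52.2 CPM and Dpt 407, 52.0 and 23.8 CPM in the same order. Of the 10 markers, 2 were called higher and 6 lower in CP2 versus CP1, against 43.2% of all genes called either way. In CP2 versus P1, 4 were higher and 5 lower, against 56.7%. In CP1 versus P1, 4 were higher and 0 lower, against 44.8%. Their part in the P4ha1 and P4ha2 differences was not tested.

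Vegfa, the main growth factor for blood vessels, measured 138, 171, 148 and 174 CPM in CP2 tumours, 228, 243 and 439 CPM in CP1 tumours and 122, 151 and 95.2 CPM in P1 tumours. CP1 lay above both other lines in every tumour. The log2 fold change was -0.94 ± 0.23 (SE), adjusted p = 0.00886 in CP2 versus CP1, and 1.31 ± 0.25 (SE), adjusted p = 0.00207 in CP1 versus P1, and both calls held without any 1 tumour. The 14 endothelial markers summed to 465 to 622 CPM in CP2, 577 to 708 CPM in CP1 and 416 to 779.8 CPM in P1. These sums lean on Flt1, which averaged 200 CPM in CP2, 172 CPM in CP1 and 30.3 CPM in P1. The calls of the 14 markers in CP2 are given with Epas1 below. Ero1a, an oxidase that helps proteins form disulphide bonds, measured 162, 177, 152 and 172 CPM in CP2 tumours, 307, 192 and 569 CPM in CP1 tumours and 145, 235 and 218 CPM in P1 tumours. CP1 replicate 3 was the highest by far. Its -1.10 ± 0.31 (SE), adjusted p = 0.0156 in CP2 versus CP1 was lost on leaving out CP1 replicate 3 (adjusted p = 0.0625), and without CP1 replicate 2 it passed in CP1 versus P1 (adjusted p = 0.00763).

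The prolyl hydroxylases that mark HIF alpha subunits, both known as hypoxia-induced feedback genes, moved in opposite directions in CP2 versus P1. Egln1 measured 192, 208, 185 and 209 CPM in CP2 tumours, 109, 111 and 181 CPM in CP1 tumours and 102, 106 and 123 CPM in P1 tumours. The 4 CP2 tumours were the highest. Egln1 rose by log2 0.57 ± 0.17 (SE), adjusted p = 0.0217 in CP2 versus CP1, lost on leaving out CP2 replicate 2 or 4 or CP1 replicate 1 or 2 (adjusted p = 0.0506 to 0.0861), and by 0.85 ± 0.17 (SE), adjusted p = 0.00205 in CP2 versus P1. Egln3 measured 60.5, 67, 56.2 and 62 CPM in CP2 tumours, 78.4, 85.2 and 269.8 CPM in CP1 tumours and 119, 228 and 457 CPM in P1 tumours. The CP2 tumours were the lowest and kept within 56.2 to 67 CPM, while P1 tumours ranged widely. It was 4.37-fold lower in CP2 than in P1 (log2 -2.13 ± 0.49 (SE), adjusted p = 0.00445), and without P1 replicate 3 this was log2 -1.51 (adjusted p = 0.0236). Egln3 passed in CP1 versus P1 without CP1 replicate 3 (log2 -1.71, adjusted p = 0.0160), and in CP2 versus CP1 without P1 replicate 1, P1 replicate 3 or CP1 replicate 1 (adjusted p = 0.0376 to 0.0440).

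Bnip3 and Bnip3l, which direct mitochondria to autophagy, and Ndrg1, a stress-responsive gene often used as a hypoxia marker, each had a single call with all tumours, which was lost on leaving out some of them. Ndrg1 measured 584, 398, 372 and 440.3 CPM in CP2 tumours, 448, 381 and 858 CPM in CP1 tumours and 243, 312 and 308 CPM in P1 tumours, with every CP2 and CP1 tumour above every P1 tumour. The difference in CP1 versus P1, log2 0.97 ± 0.29 (SE), adjusted p = 0.0205, was lost on leaving out CP1 replicate 3 or P1 replicate 1 (adjusted p = 0.0650 to 0.0736). In CP2 versus P1, at 0.64 ± 0.27 (SE), adjusted p = 0.0681, it passed without CP1 replicate 2 or 3 (adjusted p = 0.0453 and 0.0114). Bnip3 measured 106, 107, 85.6 and 105 CPM in CP2 tumours, 99.1, 100.3 and 246 CPM in CP1 tumours and 61.9, 90.9 and 89.7 CPM in P1 tumours, and CP1 replicate 3 stood far above the rest. Its 0.88 ± 0.32 (SE), adjusted p = 0.0495 in CP1 versus P1 was lost on leaving out any single tumour other than CP1 replicate 1 or 2 (adjusted p = 0.0621 to 0.191). Bnip3l differed by log2 -0.35 ± 0.13 (SE), adjusted p = 0.0479 in CP2 versus P1, with values of 123, 99.9, 102 and 93.7 CPM in CP2 and 124, 141 and 134 CPM in P1, with no overlap. That call was lost on leaving out any single tumour other than CP2 replicate 1, CP1 replicate 1 or 3 or P1 replicate 1 (adjusted p = 0.0510 to 0.120), while the log2 fold change stayed within -0.43 to -0.29 over the 10 tumours left out in turn.

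Adm, a vasodilator peptide, and Ankrd37, an ankyrin-repeat protein, were present at low levels and were called in no comparison with all tumours. Adm ran from 1.66 to 14.8 CPM and Ankrd37 from 3.93 to 14.9 CPM. CP1 replicates 1 and 2 held the lowest Ankrd37 values. Without CP1 replicate 3, Ankrd37 passed in CP2 versus CP1 (log2 1.41, adjusted p = 0.0186) and in CP1 versus P1 (log2 -1.34, adjusted p = 0.0234).

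The genes for the HIF alpha subunits were lower in CP2 than in either other line. Hif1a, the subunit most tied to glycolytic genes, measured 171, 152, 161 and 164 CPM in CP2 tumours, 203, 241 and 282 CPM in CP1 tumours and 248, 295 and 184 CPM in P1 tumours. The 4 CP2 tumours were the lowest. Its log2 fold change was -0.58 ± 0.16 (SE), adjusted p = 0.0142 in CP2 versus CP1, lost on leaving out CP1 replicate 3 (adjusted p = 0.0601), and -0.58 ± 0.16 (SE), adjusted p = 0.00984 in CP2 versus P1. Epas1, which encodes the second alpha subunit and is high in endothelium, measured 34.6, 39.4, 35.4 and 35.3 CPM in CP2 tumours, 61.4, 71.3 and 77 CPM in CP1 tumours and 88.4, 74.5 and 60.7 CPM in P1 tumours. Again the 4 CP2 tumours were the lowest. Epas1 was 1.93-fold lower in CP2 than in CP1 (log2 -0.95 ± 0.13 (SE), adjusted p = 0.000331) and 2.06-fold lower in CP2 than in P1 (log2 -1.04 ± 0.13 (SE), adjusted p = 8.9e-05). Of the 14 endothelial markers, 7 were called lower and none higher in CP2 versus CP1, and 7 were lower and 1 higher in CP2 versus P1, against 21.9% and 28.4% of all genes called lower. Flt1, a receptor for vascular growth factors and the most abundant of the 14 in CP2, stood at 173 to 237 CPM in CP2 tumours and 19.1 to 45.0 CPM in P1 tumours, the opposite direction to Epas1. The part of endothelial content was not tested. Neither subunit passed in CP1 versus P1, where the approximate 95% interval of the log2 fold change was -0.33 to 0.33 for Hif1a and -0.36 to 0.18 for Epas1. These are transcript levels, whereas HIF alpha subunits are controlled mainly as proteins. Vhl, the receptor subunit of the ligase that destroys them, measured 52.4, 49.8, 53.4 and 60.4 CPM in CP2 tumours, 49.998, 45.1 and 50.1 CPM in CP1 tumours and 45.7, 45.8 and 40.3 CPM in P1 tumours. The 4 CP2 tumours lay above the P1 tumours and overlapped CP1. Its rise of log2 0.30 ± 0.09 (SE), adjusted p = 0.0199 in CP2 versus P1 was lost on leaving out CP2 replicate 4 or P1 replicate 3 (adjusted p = 0.0542 to 0.0690). Vhl passed neither in CP2 versus CP1 (0.16 ± 0.09 (SE), adjusted p = 0.192) nor in CP1 versus P1 (0.14 ± 0.10 (SE), adjusted p = 0.285).

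CP1 replicate 3 carried the highest level among the CP1 tumours for 33 of 38 members (86.8%), against 29.8% of all genes tested. It was highest for all 12 hypoxia-induced genes and for 14 of the 16 glycolytic enzymes. Relative to the mean of the other CP1 tumours it stood at a median log2 of 1.12 for the hypoxia-induced genes and 0.54 for the glycolytic enzymes, against -0.02 for all genes. A further 26 genes known to be induced by hypoxia, not among the members, showed a median of 0.46, and 18 of them (69.2%) were highest in that tumour. Summed over the 12 hypoxia-induced members, levels were 1629, 1604, 1381 and 1677 CPM in CP2, 1954, 1565 and 3336 CPM in CP1 and 1238, 1661 and 1844 CPM in P1. The sum over the 16 glycolytic enzymes was 6577, 7772, 6499 and 6744 CPM in CP2, 8602, 7952 and 11781 CPM in CP1 and 5687, 6281 and 8252 CPM in P1. CP1 replicate 3 also held the highest smooth muscle sum (4927 CPM, against 671 and 3215 CPM in CP1 replicates 1 and 2) and the lowest macrophage sum (702 CPM, against 1502 and 1489.6 CPM). Its red blood cell sum (2.55 CPM, against 17.4 and 15.8 CPM), adipocyte sum (51.8 CPM, against 274 and 198 CPM) and fibroblast sum (15328 CPM, against 23810.0 and 17349 CPM) were also the lowest, and its proliferation sum (2041 CPM, against 1452 and 1730.1 CPM) and skeletal muscle sum (60.6 CPM, against 5.76 and 33.6 CPM) the highest. Its urothelial sum was 806 CPM, against 184 and 1805 CPM, and its endothelial sum 708 CPM, against 680.1 and 577 CPM. The part of these cell types was not tested.

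Within P1, replicate 1 was the lowest P1 tumour for 23 of 38 members (60.5%), against 34.6% of all genes, and for 9 of the 12 hypoxia-induced genes. The same tumour had the largest seminal vesicle and secretory prostate sum, 173693 CPM, against 69978 and 20941 CPM in P1 replicates 2 and 3. With those marker genes taken out of the counts before scaling, the members called in CP1 versus P1 were 11 higher and 5 lower, against 13 and 5 with them kept. Over all genes the calls were 3876 higher and 4022 lower, against 3955 and 3951. P1 replicate 3 was the highest P1 tumour for 13 of the 16 glycolytic enzymes (81.2%), against 36.5% of all genes. Within CP2 the spread was small: CP2 replicate 2 was the highest for 13 of the 16 glycolytic enzymes, at a median log2 of 0.18 over the other CP2 tumours, and CP2 replicate 3 was the lowest for 9 of the 12 hypoxia-induced genes, at -0.28.

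**Figure D5:**
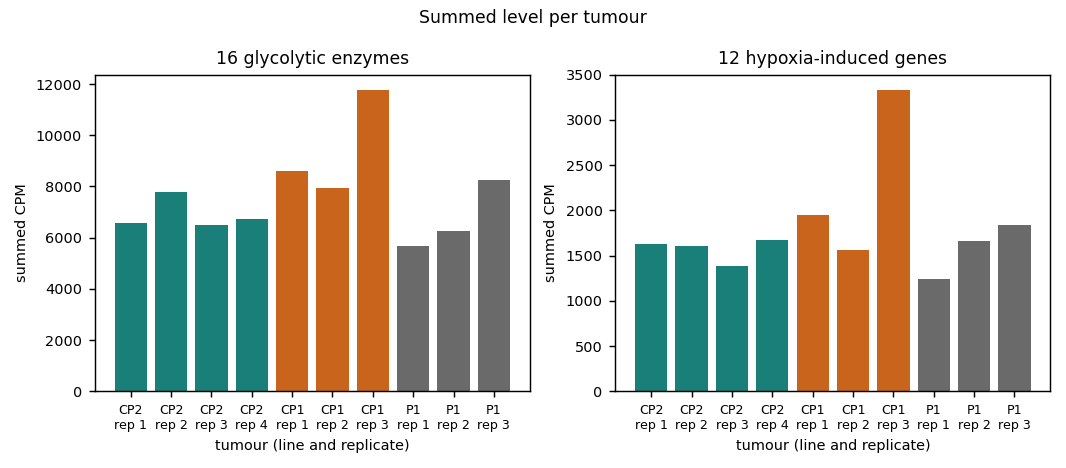
Bars give the summed CPM of the 16 glycolytic enzymes (left) and of the 12 hypoxia-induced genes (right) in each tumour, CP2, CP1 and P1 from left to right. CP1 replicate 3 is highest in both, at 11781 and 3336 CPM.

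Genes of the same pathways outside the members were read from 7 further lists of 111 genes, of which 102 passed the filter. In CP2 versus CP1, 19 were called higher and 41 lower (58.8%, against 43.2% of all genes). In CP2 versus P1, 20 were higher and 39 lower (57.8%, against 56.7%), and in CP1 versus P1, 29 were higher and 19 lower (47.1%, against 44.8%). Of 8 pentose phosphate genes tested, 1 was higher and 4 lower in CP2 versus CP1 (62.5% called). In CP2 versus P1, 6 of them were lower (75.0%), and in CP1 versus P1, 3 were higher and 2 lower (62.5%). Of 7 genes for the entry of pyruvate into mitochondria, 4 were lower in CP2 versus CP1 (57.1%). A further 3 calls, all lower, stood in CP2 versus P1 (42.9%), and 2 were higher in CP1 versus P1 (28.6%). Of 13 further sugar and lactate transporters, 7 were lower and 2 higher in CP2, both versus CP1 and versus P1 (69.2% each). In CP1 versus P1, 5 of the 13 were lower and 3 higher (61.5%). These shares stand beside the same 43.2%, 56.7% and 44.8% of all genes. The genes named below were picked partly for a lack of overlap between the lines compared, so that separation is not a result.

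Pklr and Hkdc1 were present in P1 and nearly missing in both CP lines. Pklr, a pyruvate kinase of liver and red cells, stood at 0.411, 0.0982, 0.0456 and 0 CPM in CP2 tumours, 0.106, 0.0974 and 0.0810 CPM in CP1 tumours and 81.4, 100.5 and 100.4 CPM in P1 tumours. Hkdc1, a hexokinase domain gene, stood at 0.103, 0, 0.137 and 0.0465 CPM in CP2 tumours, 0.353, 0.292 and 1.38 CPM in CP1 tumours and 24.2, 26.7 and 34.4 CPM in P1 tumours. Fbp2, a fructose bisphosphatase of gluconeogenesis that runs the step of phosphofructokinase backwards, stood at 0.874, 0.491, 0.548 and 0.140 CPM in CP2 tumours, 0.565, 6.88 and 4.37 CPM in CP1 tumours and 32.2, 54.5 and 66.7 CPM in P1 tumours. P1 lay above both CP lines in every tumour for these 3 genes, as did the epithelial markers given above, and the part of epithelial content was not tested.

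Eno3, the muscle enolase, ran the other way at 130.4, 137, 138 and 138 CPM in CP2 tumours, 429, 316 and 326 CPM in CP1 tumours and 7.24, 6.11 and 6.42 CPM in P1 tumours, with no overlap between the lines, and was at log2 4.36 ± 0.14 (SE), adjusted p = 1.3e-07 in CP2 versus P1, and 5.76 ± 0.15 (SE), adjusted p = 7.4e-08 in CP1 versus P1. The 12 skeletal muscle markers summed to 8.84 to 23.0 CPM in CP2, 5.76 to 60.6 CPM in CP1 and 25.0 to 62.0 CPM in P1, with Pvalb at 0 counts in CP1 and Myh2 at 0 counts in P1. Eno1b stood at 7.56, 9.08, 6.94 and 9.78 CPM in CP2 tumours, 42.3, 32.8 and 45.5 CPM in CP1 tumours and 10.8, 8.23 and 10.9 CPM in P1 tumours. Its CP1 values were the highest, and its near-identity to Eno1 makes both uncertain.

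Among other hypoxia-induced genes, Stc1, a secreted glycoprotein hormone, stood at 387, 351, 423 and 359 CPM in CP2 tumours, 147, 123 and 126 CPM in CP1 tumours and 11.7, 5.36 and 5.99 CPM in P1 tumours. Plin2, which coats lipid droplets, stood at 207, 252, 189.99 and 265 CPM in CP2 tumours, 652, 484 and 519 CPM in CP1 tumours and 116, 108 and 126 CPM in P1 tumours. Edn1, the vasoconstrictor endothelin, stood at 1.59, 0.785, 0.684 and 1.26 CPM in CP2 tumours, 6.18, 5.33 and 7.94 CPM in CP1 tumours and 23.2, 22.5 and 23.9 CPM in P1 tumours. Stc1 was thus highest in CP2, Plin2 in CP1 and Edn1 in P1. The lines did not overlap for any of the 3, which was in part a condition for naming them. All 3 genes passed the test in each comparison, Stc1 at log2 1.52 ± 0.24 (SE), adjusted p = 0.000703 in CP2 versus CP1 and 5.62 ± 0.29 (SE), adjusted p = 5.9e-07 in CP2 versus P1. Arnt2, a partner of the HIF alpha subunits known mostly from neural tissue, stood at 145, 97.4, 110.4 and 103 CPM in CP2 tumours, 45.4, 26.2 and 37.6 CPM in CP1 tumours and 7.06, 5.96 and 3.14 CPM in P1 tumours, with CP2 highest. In the pentose phosphate pathway, Pgd stood at 90.4, 92.6, 90.2 and 86.5 CPM in CP2 tumours, 254, 338 and 291 CPM in CP1 tumours and 176, 194 and 269 CPM in P1 tumours. H6pd, an enzyme of the endoplasmic reticulum, stood at 73.8, 57.6, 50.7 and 57.8 CPM in CP2 tumours, 498, 452 and 443 CPM in CP1 tumours and 269, 192 and 193 CPM in P1 tumours. Both were lowest in CP2, H6pd at log2 -2.95 ± 0.16 (SE), adjusted p = 2.5e-06 in CP2 versus CP1 and -1.86 ± 0.15 (SE), adjusted p = 7.2e-06 in CP2 versus P1. Bsg, the chaperone that carries Slc16a1 and Slc16a3 to the cell surface, stood at 511, 588, 529 and 614 CPM in CP2 tumours, 730.03, 655 and 831 CPM in CP1 tumours and 972, 1319 and 1453 CPM in P1 tumours, and its P1 values were the highest (log2 -1.15 ± 0.15 (SE), adjusted p = 0.000112 in CP2 versus P1).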

How the data were processed

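RNA sequencing counts from 10 tumours were read: 4 CP2, 3 CP1 and 3 P1. Per the labels' protocols, total RNA was extracted with a Qiagen kit and sequenced on an Illumina instrument. Per the submitters' processing notes, the tools included HTSeq 0.6.0 and TopHat2 2.1.0, and the build was GRCm38.p3. The authors deposited raw counts per gene, which were used as deposited. No source used here says whether reads were counted by strand, so reads of genes that overlap on opposite strands cannot be told apart. Gene names came from GENCODE M21 (46574 of 47069 IDs matched). Part of the genotypes is not reported here.

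Genes passing edgeR's filterByExpr (minimum count 10, total 15) were kept, scaled by TMM and tested in 1 quasi-likelihood fit over all 10 tumours with edgeR 4.0.16 and limma 3.58.1 in R 4.3.3. P-values were adjusted by Benjamini-Hochberg over 17644 genes, with a threshold of 0.05. The SE of a log2 fold change was taken as its size over the root of F. The test was run first on simulated data with known changes. No label ties a library to its own animal, so p-values measure the spread between these samples, which may be technical. In these units 3 counts equal 0.0924 to 0.154 CPM. Genes with few counts carry a large counting error, as Pklr does with 11 counts over CP2 and 8 over CP1.

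Isozyme shares used CPM per kilobase of exon and an exact two-sided permutation test. Near-identical stretches were found with BLAST 2.17.0 (at least 95% identity over 200 bases), which named 13 members, and 14 members have exons that overlap another gene. Python 3.11.15 with pandas 2.3.3 was used for the other steps and matplotlib 3.10.9 for the plots. Members and lists were chosen with earlier results of these data known. Per-tumour values are given for the 3 largest called changes per role and direction, and for all transporters, HIF regulators and isozyme pairs; other members were added after their values were seen. Pathway genes outside the list were named as the 2 largest called changes per list and direction averaging 5 CPM or more. Their values also had to show no overlap between the lines compared. Those printed are a choice among these. The alternatives were other size factors, DESeq2 1.42.0, no filter on low counts, each tumour left out, P1 replicates 1 and 2 or CP1 replicates 2 and 3 removed, secretory genes taken out, and a fit of only the 2 lines compared.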

Additional observations from a re-analysis of the deposited data

Results flagged for a closer look

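Of 38 members tested for a CP2 tumour standing apart, 4 had a gap above Dixon's 95% critical value, taken as a share of the group's range. Groups of 3 tumours were not tested, and chance alone gives such a gap in about 5% of groups. Pkm was highest in CP2 replicate 2, at 2067 CPM, where the gap was 0.962 of the range. Pfkfb3 was highest in CP2 replicate 4, at 40.3 CPM, with a gap of 0.879 of the range. Bnip3 was lowest in CP2 replicate 3, at 85.6 CPM, with a gap of 0.920 of the range. Epas1 was highest in CP2 replicate 2, at 39.4 CPM, with a gap of 0.840 of the range, and that value was still below every CP1 and P1 tumour.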

How the results depend on the processing

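Of 114 member fold changes, 48 were called, and 21 of these passed the threshold under all 17 alternatives. With CP1 replicates 2 and 3 removed, CP1 replicate 1 is left alone and assumed to vary like the other lines. Ldhb, not called with all tumours, then had the opposite sign in CP1 versus P1 (log2 -1.12) and in CP2 versus CP1 (log2 1.03). The same removal gave 5 members, 1 glycolytic enzyme and 24 other pathway genes lower in CP2 versus CP1, and 1 glycolytic enzyme higher. In CP1 versus P1 it gave 7 members, 3 glycolytic enzymes and 3 hypoxia-induced genes higher, and 2 hypoxia-induced genes lower. The same applies with P1 replicates 1 and 2 removed, which likewise leaves 1 P1 tumour. With only the 2 lines compared in the fit, 8 glycolytic enzymes were lower in CP2 versus CP1. Over all genes 4298 were then lower there, against 3867 in the main fit. In CP1 versus P1, 7 members, 3 glycolytic enzymes and 3 hypoxia-induced genes were higher, and 3 members and 1 glycolytic enzyme lower. Over all genes 2946 were then higher and 3177 lower, against 3955 and 3951 in the main fit. The calls over all genes thus moved in the same direction as these counts. These removals leave fewer tumours in the fit, and the cause of each change was not tested.

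With each tumour left out in turn, the members called higher and lower were 2 to 4 and 6 to 16 in CP2 versus CP1, 6 to 8 and 6 to 9 in CP2 versus P1, and 7 to 14 and 3 to 6 in CP1 versus P1. For glycolytic enzymes the counts were 0 to 0 higher and 2 to 7 lower in CP2 versus CP1, 1 to 3 and 1 to 2 in CP2 versus P1, and 3 to 9 and 1 to 2 in CP1 versus P1. For hypoxia-induced genes they were 0 to 2 and 2 to 5, 2 to 3 and 2 to 3, and 3 to 6 and 1 to 3 in the same order of comparisons. For other pathway genes they were 13 to 19 and 36 to 43, 15 to 20 and 34 to 42, and 25 to 32 and 14 to 18. Calls over all genes, either way, also moved: 6284 to 8705 in CP2 versus CP1, 8960 to 10208 in CP2 versus P1 and 6892 to 8033 in CP1 versus P1. Differences in isozyme share that changed sign were those of Ldhb, at -0.322 to 1.63 percentage points in CP2 versus CP1 and -1.46 to 0.226 in CP2 versus P1, Hk2 at -2.07 to 4.15 in CP2 versus P1, Aldoc at -0.0988 to 0.0257 in CP2 versus CP1 and Pkm at -0.0104 to 0.00188 in CP2 versus CP1. DESeq2 gave no adjusted p for Pfkfb3 in any of the 3 comparisons. No paired analysis was possible because the replicate numbers were given in accession order and pair no tumours.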
